A study of Mus musculus with 4 samples.

Results

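The genes described here are 10 chemokine ligand genes of the mouse preadipocyte line 3T3-L1: Cxcl1, Cxcl5, Cxcl10, Cxcl12, Cx3cl1, Ccl2, Ccl5, Ccl7, Ccl9 and Ccl20. They were chosen by gene symbol from the 16709 symbols of the deposited table, and all 10 were found. 3T3-L1 is an established fibroblast-like line that can be turned into adipocytes, and the labels describe the cells used here as preadipocytes. One group of 2 biological replicates received 25 µM Nutlin-3a, dissolved in DMSO, for 24 h, and the other group of 2 received the same amount of DMSO alone. Nutlin-3a blocks the binding of MDM2 to p53 and so releases p53. RNA was sequenced from all 4 samples, but the authors' table gave 1 FPKM value (fragments per kilobase of transcript, scaled to library depth) for each transcript and group, so no value below carries a replicate error and no test across samples could be run. As a check of the treatment, the p53 target Cdkn1a stood at 386 FPKM with Nutlin-3a and at 35.2 FPKM with DMSO, and Trp53 itself at 63.1 and 54.5 FPKM. The further p53 targets Ccng1 (199.9 against 22.3 FPKM), Trp53inp1 (38.4 against 2.62 FPKM) and Gdf15 (29.3 against 1.998 FPKM) were past the 2-fold limit used below. Of the 6 genes of the p53 list, 5 were at least 2-fold higher, beside 6.62% of all genes compared. This list was chosen with earlier results of these data known. Wherever a pair of values is given without group names, the Nutlin-3a value comes before the DMSO value.

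Chemokines are small secreted proteins that guide migrating cells through G protein-coupled receptors. Their names follow the spacing of conserved cysteines near the amino terminus: adjacent in the CC ligands, separated by a single residue in the CXC ligands and by a longer gap in CX3CL1, which is also made as a membrane-anchored protein. In adipose tissue, stromal cells and preadipocytes are known sources of ligands that recruit monocytes and neutrophils, and several of these genes are known targets of the transcription factor NF-kB or of interferon signalling.

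The chemokine genes did not shift as a block between the groups. Cxcl1, a neutrophil attractant, was 5.43-fold higher in Nutlin-3a, whereas Ccl5, an attractant of T cells and monocytes, was 2.13-fold lower and the monocyte attractant Ccl2 was 1.69-fold lower. Cxcl12, the ligand with the highest FPKM in both groups, was 1.40-fold higher, and Ccl7 and Cxcl5 differed by at most 1.03-fold. Each gene's ratio was taken as log2 of (Nutlin-3a FPKM + 1) over (DMSO FPKM + 1), a scale that makes the ratios of low genes look smaller, and a 2-fold difference on that scale was used as a limit of size. Of 9 chemokine genes with a mean of at least 1 FPKM and a value above 0 in each group, 1 was at least 2-fold higher (Cxcl1) and 1 at least 2-fold lower (Ccl5). Over all 10331 genes compared in the same way, 6.62% were at least 2-fold higher and 6.14% at least 2-fold lower. The median log2 ratio was 0.04 over the 9 chemokine genes and 0.07 over all genes compared. These are descriptions of group values. They were not set against any replicate spread.

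**Figure D1:**
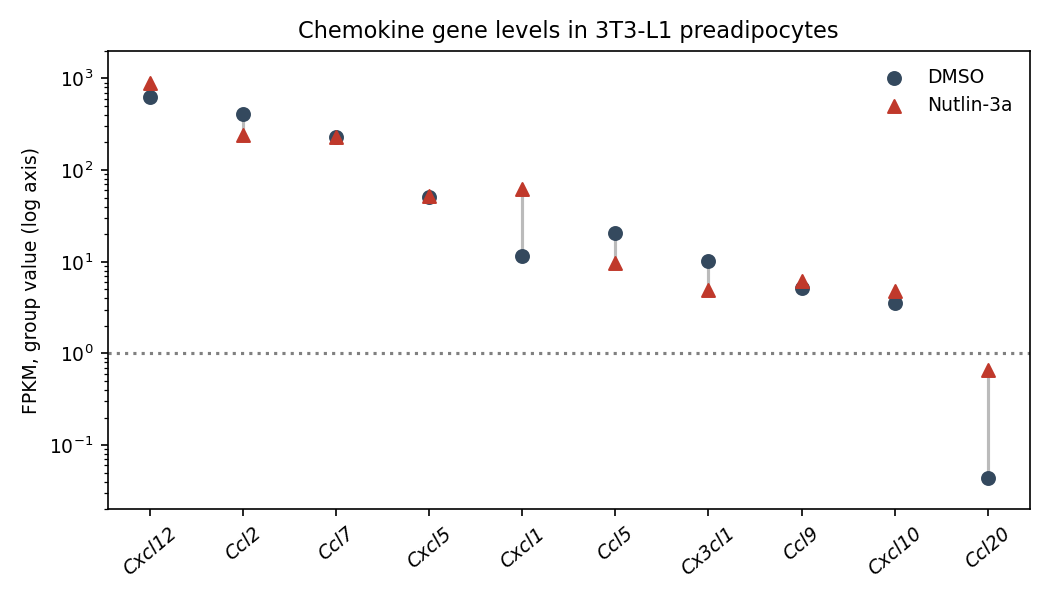
FPKM of the 10 chemokine genes in DMSO (circles) and Nutlin-3a (triangles), on a log axis, 1 authors' group value per point with no replicate error, ordered by mean. The dotted line marks the minimum mean of 1 FPKM, and Ccl20 is the gene with both values under it.

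By level, the genes fell into 3 ranges in both groups. Cxcl12, Ccl2 and Ccl7 were each at 229 FPKM or more and together held 92.5% of the summed FPKM of the 10 genes in DMSO and 90.5% in Nutlin-3a. Cxcl5, Cxcl1, Ccl5, Cx3cl1, Ccl9 and Cxcl10 lay between 3.57 and 62.4 FPKM, and Ccl20 lay under 1 FPKM. In DMSO the order from the top was Cxcl12, Ccl2, Ccl7, Cxcl5, Ccl5, Cxcl1, Cx3cl1, Ccl9, Cxcl10 and Ccl20. In Nutlin-3a Cxcl1 stood above Cxcl5, and Ccl9 stood above Cx3cl1, while Ccl2 and Ccl7 were nearly level. Without replicate values, which neighbours in these orders differ beyond their spread cannot be said.

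The summed FPKM of the 10 genes was 1488 in Nutlin-3a and 1366 in DMSO, a 1.09-fold difference, but its make-up was not the same. The 4 CXC genes held 67.1% of the sum in Nutlin-3a and 50.9% in DMSO, and the 5 CC genes held 32.5% and 48.4%. All 4 CXC genes had a log2 ratio above 0 (median 0.41), except that Cxcl5 was at -0.031 after centring on the median of all genes and at -0.13 with a GC correction (adjustment for the base content of transcripts). Of 4 CC genes compared, 3 had a ratio below 0 (median -0.38). Of these, Ccl7 moved to 0.020 after upper-quartile scaling and to 0.014 after quantile normalization. Over all genes compared, 54.8% had a ratio above 0. In Nutlin-3a the CC share was mostly Ccl2 (16.1%) and Ccl7 (15.4%) and the CXC share mostly Cxcl12 (59.1%). Cxcl12 (0.48) and Ccl2 (-0.75) were both within the 2-fold limit. The 6 other chemokine ligand genes compared did not all keep to this split. The CC genes Ccl8 (-0.62), Ccl27a (-0.45) and Ccl17 (-0.09) were below 0. The CC genes Ccl25 (2.27) and Ccl11 (0.33) were above 0, and the CXC gene Pf4 (-0.16) was below. Without Cxcl12, the other 9 genes summed to 609 FPKM with Nutlin-3a and 737 FPKM with DMSO.

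Among the neutrophil attractants, which act on the receptor CXCR2, Cxcl1 was higher with Nutlin-3a and Cxcl5 was nearly level. Cxcl1 stood at 62.4 FPKM with Nutlin-3a and at 11.5 FPKM with DMSO, a log2 ratio of 2.34 that ranked 50 of the 10331 genes compared. Cxcl5 stood at 52.4 FPKM with Nutlin-3a and at 50.9 FPKM with DMSO, a log2 ratio of 0.04. Cxcl5 therefore had 4.44 times the FPKM of Cxcl1 in DMSO, and Cxcl1 had 1.19 times that of Cxcl5 in Nutlin-3a. Cxcl1 lies on chromosome 5 from 90891245 to 90893115 and Cxcl5 on the same chromosome from 90759298 to 90761625 (mm10, whole listed gene models). Both have 1 listed transcript.

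Both genes belong to a cluster of CXC ligand genes on chromosome 5. Of its genes from Cxcl5 to Cxcl2, only Cxcl5, Pf4 and Cxcl1 could be compared. Among these, Cxcl1 was past the limit, beside 6.62% of all genes compared that were at least 2-fold higher. Ppbp, Cxcl3, Cxcl15 and Cxcl2 were too low or at 0 in a group, so they could not be called. From the start of Cxcl5, the listed genes follow at 9.22 kb (Ppbp), 13.1 kb (Pf4), 26.8 kb (Cxcl3), 35.2 kb (Cxcl15), 131.9 kb (Cxcl1) and 144.6 kb (Cxcl2). Cxcl2, the neighbour 10.8 kb beyond the end of Cxcl1 and another CXCR2 ligand, had 0.270 FPKM with Nutlin-3a and was listed at 0 with DMSO. Cxcl3, a further CXCR2 ligand, was at 0.344 FPKM in Nutlin-3a and at 0 in DMSO. Cxcl15, the listed neighbour before Cxcl1, was at 0.381 and 0.275 FPKM. Ppbp and Pf4, which encode platelet chemokines, were at 1.27 against 0.503 FPKM and 0.994 against 1.23 FPKM. With Nutlin-3a, each listed gene from Cxcl5 to Cxcl2 other than Cxcl1 and Cxcl5 was thus at 1.27 FPKM or less.

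**Figure D2:**
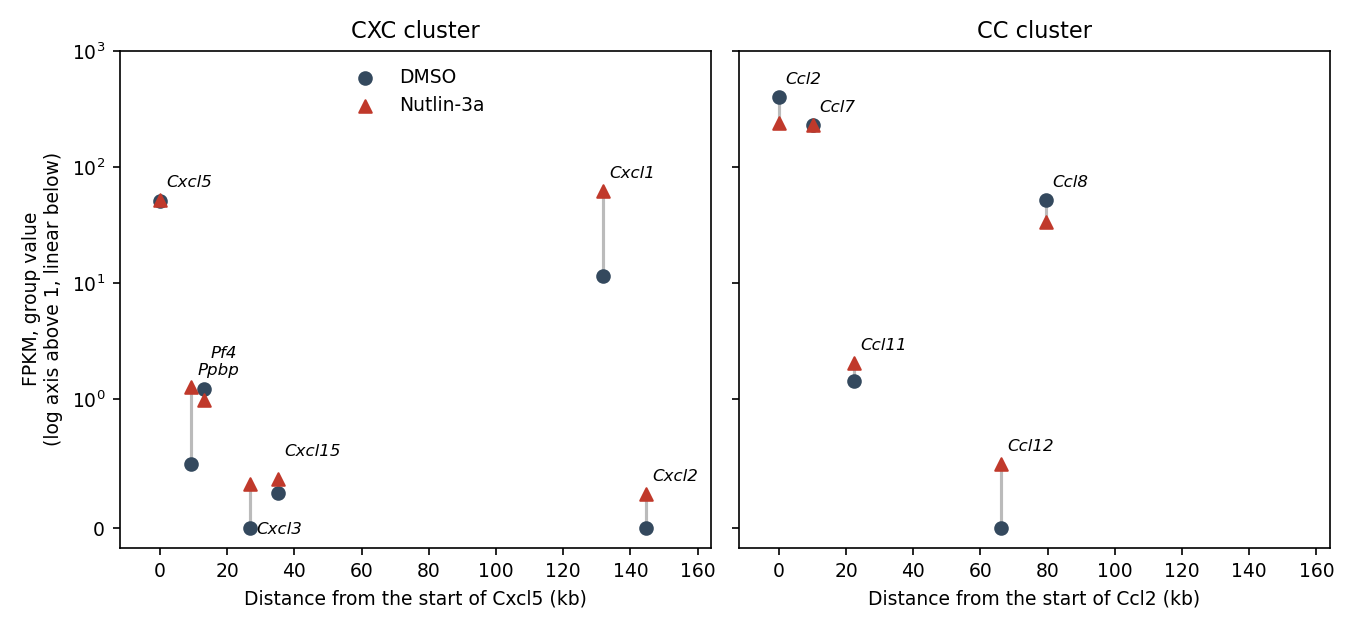
FPKM of the listed CXC ligand genes by distance in kb from the start of Cxcl5 (left) and of CC ligand genes by distance from the start of Ccl2 (right), in DMSO (circles) and Nutlin-3a (triangles), with a log axis above 1 and a linear one below. Of the plotted genes above 1 FPKM in both groups, which run to Cxcl1 and Ccl8, Cxcl1 has the widest gap on this axis, and Cxcl5 and Ccl7 have overlapping points.

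Promoter sequence from RefSeq (GRCm38.p6) was at hand for 6 of the 10 genes, namely Cxcl1, Cxcl10, Cxcl12, Cx3cl1, Ccl9 and Ccl20. The 250 bases before the annotated start were searched on both strands for the NF-kB consensus, the core of the interferon-stimulated response element (GAAA and GAAA with any 2 bases between them), the p53 half-site, the AP-1 site (TGANTCA) and the TATA box (TATAAA). Printed below are Cxcl1, the gene past the limit upward, Cxcl10, which shares its NF-kB motif but lay within the limit, and Cxcl12, the most abundant ligand. They are written 5′ to 3′ on the strand of the gene, with matches to any of the motifs in capitals. The Cxcl1 window is chr5:90890995-90891244 (plus strand), the Cxcl10 window chr5:92348890-92349139 (minus strand) and the Cxcl12 window chr6:117168285-117168534 (plus strand).
Cxcl1: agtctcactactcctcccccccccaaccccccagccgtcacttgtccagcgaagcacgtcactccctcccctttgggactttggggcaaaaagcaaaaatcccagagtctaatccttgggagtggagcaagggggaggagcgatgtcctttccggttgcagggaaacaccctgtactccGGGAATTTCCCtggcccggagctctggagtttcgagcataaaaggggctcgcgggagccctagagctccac
Cxcl10: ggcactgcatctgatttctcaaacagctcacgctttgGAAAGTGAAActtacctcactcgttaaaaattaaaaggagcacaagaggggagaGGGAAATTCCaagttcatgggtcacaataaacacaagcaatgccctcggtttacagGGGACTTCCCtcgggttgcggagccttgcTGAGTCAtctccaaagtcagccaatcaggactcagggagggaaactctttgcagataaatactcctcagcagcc
Cxcl12: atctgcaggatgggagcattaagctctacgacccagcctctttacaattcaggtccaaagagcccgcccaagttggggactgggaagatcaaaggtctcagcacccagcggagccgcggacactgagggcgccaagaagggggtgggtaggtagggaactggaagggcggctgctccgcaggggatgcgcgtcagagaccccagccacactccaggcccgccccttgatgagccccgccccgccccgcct

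In the Cxcl1 window the capitals mark a single stretch, GGGAATTTCCC, which holds a match to the NF-kB consensus on each strand, overlapping by all but 1 base, between 71 and 61 bases before the start. The Cxcl10 window held 2 NF-kB matches, GGGAAATTCC from 159 to 150 and GGGACTTCCC from 103 to 94 bases before the start, besides the interferon element core GAAAGTGAAA from 213 to 204 and the AP-1 site TGAGTCA from 74 to 68. The Cxcl12 window held none of the 5 motifs. A match to the NF-kB consensus was found in 4 of the 6 chemokine windows (Cxcl1, Cxcl10, Ccl9 and Ccl20) and in 3.9% of 32851 RefSeq promoter windows of this length. The p53 half-site was found in 0 of the 6 windows and in 7.13% of all windows. These matches describe letters in a short window and not binding.

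Cxcl10, an interferon-inducible ligand of the receptor CXCR3, stood at 4.77 FPKM with Nutlin-3a and at 3.57 FPKM with DMSO, a log2 ratio of 0.33. Its listed gene model runs from 92331841 to 92414627 on chromosome 5 (mm10), while RefSeq places Cxcl10 from 92346638 to 92348889. The listed span also takes in Cxcl11 and Art3, which share it in the table, so the value of Cxcl10 is uncertain. Cxcl11, a related CXCR3 ligand, was at 0.128 against 0.0622 FPKM.

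Cxcl12, also called SDF-1, is a ligand of CXCR4 that stromal cells make constitutively and that retains blood progenitor cells in bone marrow. It stood at 879 FPKM with Nutlin-3a and at 629 FPKM with DMSO, a log2 ratio of 0.48, and ranked 156 and 202 of all 16709 symbols by FPKM. The difference of 250.3 FPKM was the largest in FPKM among the 10 genes, ahead of the 164.8 FPKM by which Ccl2 was lower. Cxcl12 was the sum of 3 listed transcripts, and these did not share 1 ratio. The transcript with the highest level was at 754 FPKM with Nutlin-3a and 505 FPKM with DMSO (1.49-fold), the next at 122 and 124 FPKM, and the least abundant at 3.32 and 0.753 FPKM. The leading transcript made up 85.7% of the gene's FPKM in Nutlin-3a and 80.2% in DMSO. How the estimate divides fragments among overlapping transcripts is not given in the sources used here, so this split is uncertain. The gene spans 117168535 to 117181368 on chromosome 6 (mm10).

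The atypical receptor ACKR3, which binds and removes CXCL12, differed the other way. Ackr3 stood at 1.81 FPKM with Nutlin-3a and at 5.66 FPKM with DMSO, 3.13-fold lower, with a log2 ratio of -1.24. It was the single gene compared among 13 listed chemokine receptor genes. The other 12 were under the minimum mean or at 0 in a group, with Ccr7, a lymphocyte homing receptor, the most abundant of them at 0.239 and 0.184 FPKM, and Ccrl2, an atypical receptor, at 0.229 and 0.0185 FPKM. Cxcr2, the receptor of Cxcl1 and Cxcl5, was at 0.0398 and 0.0214 FPKM, and Cxcr4 was not analysed here.

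Ccl2 and Ccl7, the monocyte chemoattractants MCP-1 and MCP-3 that act on CCR2, are direct neighbours, with 8.26 kb between them on chromosome 11. Ccl2 stood at 239 FPKM with Nutlin-3a and at 404 FPKM with DMSO, a log2 ratio of -0.75, with 1050 of the 10331 genes compared at or below it. Ccl7 stood at 229 FPKM with Nutlin-3a and at 231 FPKM with DMSO, a log2 ratio of -0.015. Ccl2 thus had 1.75 times the FPKM of Ccl7 in DMSO and 1.04 times in Nutlin-3a. Ccl2 spans 82035577 to 82037452 and Ccl7 82045712 to 82047523 (chromosome 11, mm10).

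The same cluster holds further CC ligands, with values on either side of 0. Ccl8, or MCP-2, 79.6 kb from the start of Ccl2, stood at 33.5 FPKM with Nutlin-3a and at 52.0 FPKM with DMSO, a log2 ratio of -0.62. Ccl11, the eosinophil attractant eotaxin, was at 2.06 and 1.43 FPKM, a log2 ratio of 0.33. Ccl12, or MCP-5, had 0.503 FPKM with Nutlin-3a and was listed at 0 with DMSO. Ccl2, Ccl7, Ccl8 and Ccl11, the compared genes of this cluster, were all within the limit. Past it were 12.8% of all genes compared, a share against which so few genes cannot be set. Ccl12 could not be compared because of its 0.

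Ccl5, or RANTES, and Ccl9, a myeloid cell attractant, lie in a second group of CC genes on chromosome 11. Ccl5 stood at 9.59 FPKM with Nutlin-3a and at 20.4 FPKM with DMSO, a log2 ratio of -1.02, just past the limit. With upper-quartile scaling (-0.98) or a GC correction (-0.88) it lay inside the limit, so its side of the limit is not settled. Ccl9 stood at 6.14 FPKM with Nutlin-3a and at 5.14 FPKM with DMSO, a log2 ratio of 0.22. Ccl5 therefore had 3.98 times the FPKM of Ccl9 in DMSO and 1.56 times in Nutlin-3a. Ccl5 spans 83525779 to 83530518 and Ccl9 83572917 to 83578636 (mm10). The RefSeq gene Gm32650 overlaps Ccl5, and their reads cannot be told apart without strand, which is not given in the sources used here.

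Also in that group, Ccl6, next to Ccl9, was at 0.527 and 0.230 FPKM. The macrophage inflammatory protein genes Ccl3 (0.0575 FPKM) and Ccl4 (2.76 FPKM) had values in Nutlin-3a and were listed at 0 in DMSO. Since a 0 here may stand for an estimate that failed, no fold is given for them.

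Cx3cl1 encodes fractalkine, which acts on CX3CR1 and tethers leukocytes while bound to the membrane. It stood at 4.96 FPKM with Nutlin-3a and at 10.2 FPKM with DMSO, a plain ratio of 2.06-fold lower and a log2 ratio of -0.91 with the pseudocount of 1. Cx3cl1 lay just inside the limit, next to Ccl5 just outside it, and it passed the limit with a pseudocount of 0.1 (-1.03). The gene spans 94772180 to 94782426 on chromosome 8 (mm10), and the RefSeq gene Gm51543 overlaps it. Its listed neighbour Ccl17, a ligand of CCR4, was at 10.2 and 10.9 FPKM, a log2 ratio of -0.09. Ccl22, the CCR4 ligand on its other side, was at 0.115 FPKM in Nutlin-3a and at 0 in DMSO. The Cx3cl1 promoter window held 1 match to the 5 motifs, a TATA box that ends at the base before the start.

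**Figure D3:**
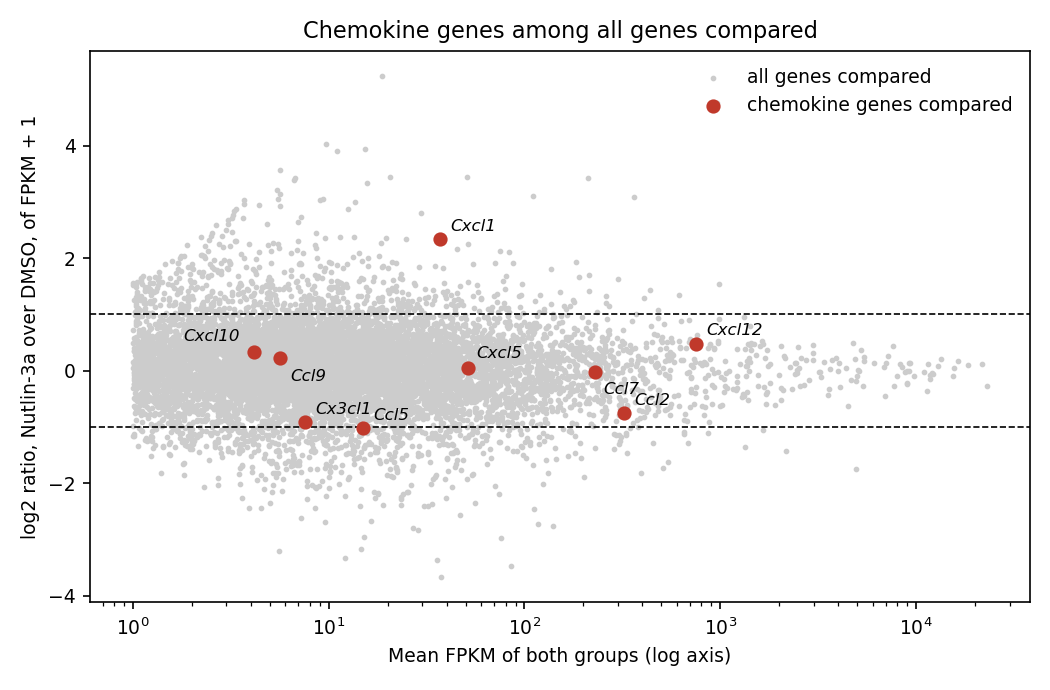
log2 ratio of Nutlin-3a over DMSO (FPKM + 1) against mean FPKM (log axis) for all 10331 genes compared (grey) and the 9 chemokine genes compared (red), with dashed lines at the 2-fold limit. Cxcl1 lies at 2.34 above the band, Ccl5 at -1.02 sits on the lower line, and the other 7 lie between the lines.

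**Figure D4:**
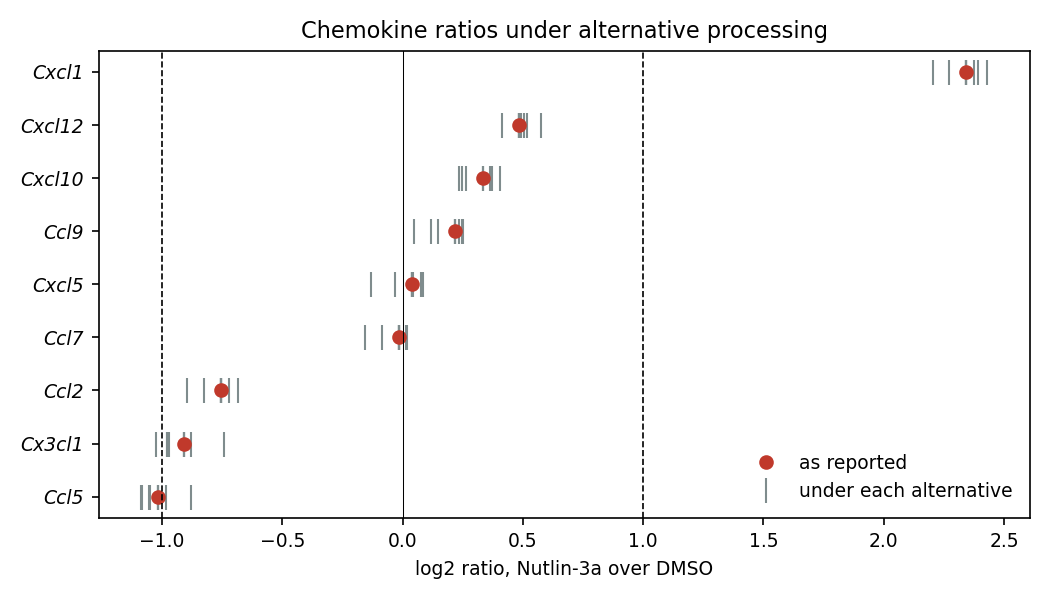
log2 ratio of Nutlin-3a over DMSO of the 9 chemokine genes compared, as reported (red points) and under each alternative processing (grey ticks), with dashed lines at the 2-fold limit. Cxcl1 stays between 2.20 and 2.43, and the ticks of Ccl5 and Cx3cl1 fall on either side of the lower line.

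Ccl20, the ligand of CCR6, was near 0 in both groups. It stood at 0.658 FPKM with Nutlin-3a and at 0.0441 FPKM with DMSO as the sum of 2 transcripts, of which 1 had 0.542 against 0.0221 FPKM and the other 0.115 against 0.0220 FPKM. On the log2(FPKM + 1) scale its ratio was 0.67. The depth of the libraries is not known, but FPKM times transcript length in kb had a most common low value of 0.0475 in each group, as a single fragment might give, which was not checked. Ccl20 came to 0.932 in Nutlin-3a and 0.0625 in DMSO on that product, so its DMSO value is close to the lowest step of the table. For comparison, Ccl5 in Nutlin-3a, the smallest product among the 9 genes compared, came to 6.41.

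Low values were not alike in both groups. Of all 16709 symbols, 14.04% were listed at 0 in DMSO and 2.79% in Nutlin-3a. Of 43 listed chemokine and receptor genes, 11 had a 0 for DMSO and 1 had a 0 for Nutlin-3a, and 27 of the 43 were not compared because of their low level or a 0. Of these 27, 23 had the higher value in Nutlin-3a, as had 72.2% of all 6378 symbols left out in this way. The higher values of Ccl20, Ccl3, Ccl4, Ccl12, Cxcl2 and Cxcl3 in Nutlin-3a move with this difference, and its part in them was not tested.

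Of 20 other chemokine ligand genes listed, 6 could be compared. Past the limit were 12.8% of all genes compared and, of these 6, 1 gene. This was Ccl25, a ligand of CCR9 known for guiding T cells to thymus and gut, which was 5.50-fold higher at 31.4 FPKM with Nutlin-3a and 5.71 FPKM with DMSO, a log2 ratio of 2.27. Its 2 listed transcripts were at 4.55 against 2.07 FPKM and 26.8 against 3.64 FPKM. The RefSeq gene LOC108167518 lies in its listed span, so its value is uncertain. The median log2 ratio of these 6 genes was -0.13. Besides Ccl8, Ccl11 and Ccl17, they included Pf4 (-0.16) and the skin-associated ligand Ccl27a, at 1.32 against 2.16 FPKM (-0.45). The listed span of Ccl27a also takes in Il11ra1, and near-identical copies of Ccl27a exist in the mouse genome, so its value is uncertain.

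Genes upstream of chemokine transcription went both ways. Of 20 compared genes of cytokine and Toll-like receptor signalling, 3 were at least 2-fold lower and 1 higher, beside 6.14% lower and 6.62% higher over all genes compared, with a median log2 ratio of -0.25. Il17rc, a subunit of the receptor of the inflammatory cytokine IL-17, was 4.40-fold lower (15.8 against 69.5 FPKM). Tlr2, a receptor of bacterial lipoproteins, was at 4.86 against 11.5 FPKM, and Irak2, a kinase of the Toll-like receptor pathway, at 2.18 against 6.02 FPKM. Map3k7, which encodes the kinase TAK1 upstream of NF-kB, was 3.19-fold higher (12.5 against 3.91 FPKM). Its listed span overlaps the RefSeq gene Gm26254. The most abundant member, the TNF receptor gene Tnfrsf1a, was at 84.5 and 80.3 FPKM, and the adaptor gene Tradd at 40.2 and 54.5 FPKM.

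Of 15 compared genes for NF-kB factors and their feedback regulators, 2 were lower and 1 higher, a share past the limit not far from the 12.8% over all genes compared, with a median of 0.02. Rela, the p65 subunit, was at 30.5 and 29.0 FPKM, a log2 ratio of 0.07. Relb, a subunit of the noncanonical pathway, was 2.19-fold lower (10.2 against 22.3 FPKM), and the inhibitor gene Nfkbie 2.28-fold lower (4.38 against 10.0 FPKM). Nfkbiz, a nuclear IkB protein that acts on secondary response genes, was 2.54-fold higher (5.87 against 2.31 FPKM). With a GC correction Relb (-0.89) and Nfkbie (-0.87) lay inside the limit, and Nfkbiz lay inside it after centring or quantile normalization, with a lowest value of 0.93. Nfkb2 was at 22.7 against 37.3 FPKM and Nfkbib at 33.99 against 18.1 FPKM, both within the limit, which Nfkbib passed with a GC correction.

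None of 17 compared genes of the interferon response was past the limit, against 12.8% of all genes compared, and their median log2 ratio was -0.28. Isg15, a ubiquitin-like modifier, was at 105 and 130 FPKM, the transcription factor gene Irf1 at 69.3 and 102 FPKM and the receptor gene Ifnar2 at 30.1 and 59.1 FPKM (-0.95). Ifnar2 passed the limit after centring on the median (-1.02), and the factor gene Irf7 (1.85 against 4.04 FPKM) with a pseudocount of 0.1. Of 11 compared genes for other cytokines and inflammatory proteins, 1 was higher and none lower, with a median of 0.49, against 6.62% higher and 6.14% lower over all genes compared. Il11, a cytokine of the IL-6 family, was higher at 3.23 against 0.701 FPKM. The RefSeq gene Tmem190 overlaps the listed span of Il11, so its value is uncertain. Il6 itself, also compared, was at 1.55 and 0.606 FPKM, a log2 ratio of 0.67. Il1rn, which encodes an antagonist of the IL-1 receptor, was just inside the limit at 2.66 and 6.29 FPKM (-0.99) and past it with smaller pseudocounts, after centring (-1.07) or quantile normalization (-1.10) and with a GC correction (-1.17). The iron-binding protein gene Lcn2 was at 1.29 and 2.76 FPKM (-0.71). With a pseudocount of 0.1, 3 genes of this list were higher and 2 lower. Mif, the most abundant gene of that list, was at 1679 and 2422 FPKM, the pentraxin gene Ptx3 at 98.7 and 70.1 FPKM and Csf1, a macrophage growth factor, at 49.1 and 45.2 FPKM.

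**Figure D5:**
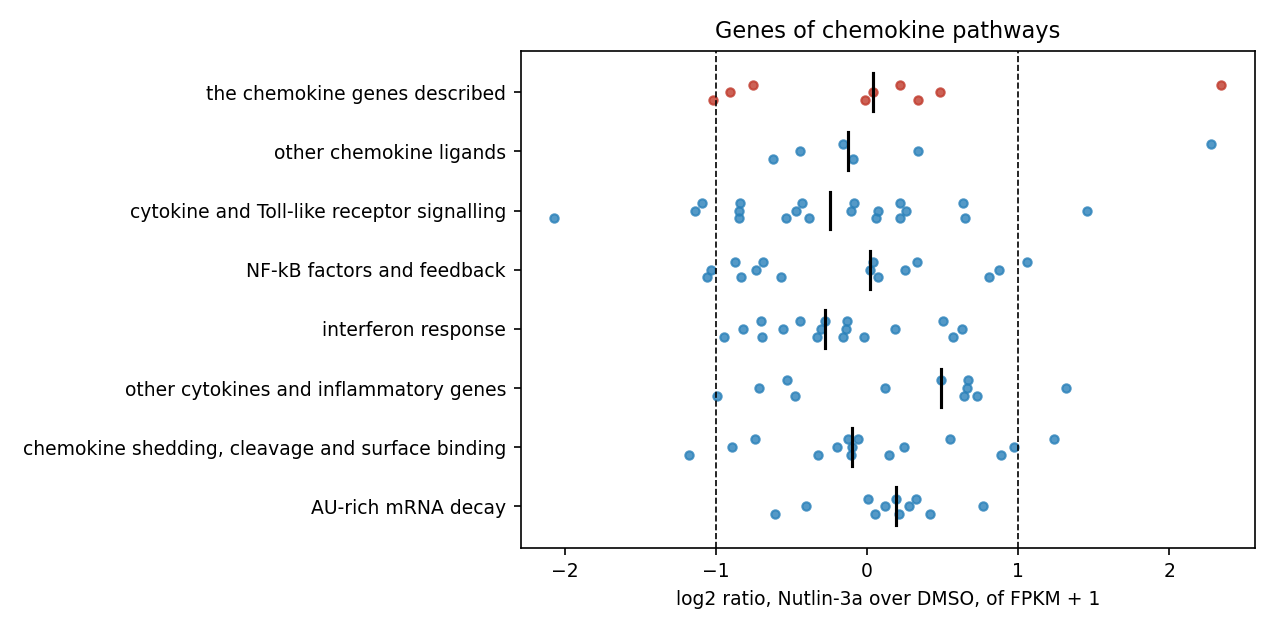
log2 ratio of Nutlin-3a over DMSO (FPKM + 1) of each compared gene in 8 lists (points), with the list median (black bar) and the 2-fold limit (dashed). The red points are the 9 chemokine genes compared, from -1.02 to 2.34, and most points of the other lists lie between the dashed lines.

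Where the nearest listed gene beside a chemokine gene was not itself a chemokine, it was within the limit or too low to compare. Few of them could be compared, and 12.8% of all genes compared were past the limit. Nup54, a nuclear pore gene 0.912 kb beyond the listed span of Cxcl10, stood at 19.1 against 14.6 FPKM (log2 ratio 0.37). That span ends at 92414627, while RefSeq ends Cxcl10 at 92348889, so Nup54 lies farther from the RefSeq gene. Sdad1, 21.8 kb before the listed span, was at 7.26 against 3.27 FPKM (0.95). It lay just inside the limit with the pseudocount of 1, which makes its ratio look smaller. The nearest listed genes to Cxcl12 lay far off. They were 8430408G22Rik at 495 kb (3.78 against 4.16 FPKM) and the zinc finger gene Zfp637 at 660 kb (63.3 against 86.4 FPKM). Pid1, the next listed gene after Ccl20 at 917 kb, was at 4.76 and 4.70 FPKM. Rassf6 (119 kb before Cxcl5), Spaca3 (1168 kb before Ccl2), Heatr9 (3.68 kb before Ccl5) and Slc19a3 (78.3 kb before Ccl20) were each under 0.5 FPKM in both groups.

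The genes whose pair of values lay nearest to that of Cxcl1 were Nup107 (55.1 against 14.4 FPKM), Aaas (46.0 against 12.1 FPKM) and Ckap2 (60.4 against 16.3 FPKM). Their distances from Cxcl1 were 0.35, 0.44 and 0.48 on the log2(FPKM + 1) scale, over 2 group values, so the likeness is one of level and ratio alone.

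The cells carried the markers of preadipocytes and little of other cell types. All 10 preadipocyte and fibroblast markers were listed, with the preadipocyte gene Dlk1 at 623 and 513 FPKM and Vim at 1181 and 3169 FPKM, though the progenitor marker Cd34 stood at only 0.186 FPKM in DMSO and 0.0187 FPKM in Nutlin-3a. Their sum was 2340 FPKM with Nutlin-3a and 5323 FPKM with DMSO, and 6 of 9 compared were at least 2-fold lower, against 6.14% of all genes compared. Of the 9 compared, lowest by log2 ratio was the stem cell antigen gene Ly6a (84.3 against 316 FPKM). Next came the collagen genes Col3a1 (52.0 against 169.5 FPKM) and Col1a2 (263 against 817 FPKM). The growth factor receptor gene Pdgfra (9.14 against 29.99 FPKM) followed. Cd34, too low to compare, is not in this order. Of 10 macrophage and leukocyte markers, 8 were listed and summed to 11.99 and 11.1 FPKM, with both Ptprc and Itgam listed at 0 for DMSO (Ptprc at 0.0619 FPKM for Nutlin-3a). Members of this list differed in opposite directions: Aif1 was 4.88-fold lower (0.642 against 3.13 FPKM, past the limit), Cd14 was at 3.03 against 4.48 FPKM, and Cd68 was at 6.52 against 2.91 FPKM, within the limit, which it passed with smaller pseudocounts or a GC correction. Of 6 neutrophil markers, 4 were listed, with sums of 4.36 and 0.754 FPKM, mostly S100a8 (3.78 against 0.732 FPKM, past the limit), and Mpo and Elane at 0 in DMSO. Of 6 T cell markers, 4 were listed, with sums of 0.537 and 0.968 FPKM, mostly Lck (0.445 against 0.968 FPKM). Cd3e, Cd3d and Cd4 were at 0 in DMSO and at most 0.0377 FPKM in Nutlin-3a. Of 7 endothelial markers, 4 were listed, with sums of 2.11 and 0.218 FPKM and Kdr at 0 in DMSO. The Nutlin-3a sum was mostly Pecam1 (1.57 against 0.0260 FPKM), and Tek was lower in Nutlin-3a (0.102 against 0.148 FPKM). Of 7 mature adipocyte markers, 6 were listed, with sums of 10.5 and 42.2 FPKM, mostly Fabp4 (8.65 against 42.0 FPKM, past the limit). The other listed markers, each under 1 FPKM, were higher in Nutlin-3a, as were 72.2% of all symbols not compared. Among them were Adipoq (0.840 against 0.0409 FPKM) and Retn (0.874 against 0.0988 FPKM). The part of other cell types in the chemokine values was not tested. In bulk RNA, a smaller share of expressing cells and less RNA in each of them cannot be told apart.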

How the data were processed

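RNA of 4 libraries of 3T3-L1 cells (2 Nutlin-3a, 2 DMSO, grouped by the sample titles) was sequenced. Per the submitters' processing notes, TopHat2 2.0.11 and the build mm10 were used, while quantifier, annotation, strandedness and the combining of replicates were not given in the sources used here. Deposited was a table of FPKM per transcript and group for 24746 transcripts, with a second pair of columns deposited as log2 of the same FPKM, which was not used. Another 4294 lines were empty. Column prefixes NUT and DSM were read as Nutlin-3a and DMSO. Listed starts count from 0, and coordinates are given here counting from 1.

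FPKM was summed per symbol with Python 3.11.15 and pandas 2.3.3, and ratios were taken on log2(FPKM + 1). Genes needed a mean of at least 1 FPKM and a value above 0 in each group. With 1 value per group, a 2-fold limit replaced the planned limma test. The calculation of the calls was tested on simulated data with known fold changes. Gene lists, members and the rule for named genes were chosen with earlier results of these data known. Named were the 10 genes, up to 4 genes per list with the largest ratio past the limit, up to 3 with the highest mean, all compared chemokine ligands and receptors, the nearest listed neighbours, and the 3 genes nearest to Cxcl1; other genes, among them Il6, Cxcl11, Cxcl2, Cxcl3, Cxcr2 and those given for lying near the limit, were named after their values were seen. GC content and transcript length came from GENCODE M21 (96.2% of genes compared). Promoters came from RefSeq GRCm38.p6.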

Additional observations from a re-analysis of the deposited data

How the results depend on the processing

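Of 90 values of single chemokine genes under alternative pseudocounts, filters, scalings, a GC correction and other treatments of transcripts, 35 were equal to the reported value, since filters and, for genes with 1 listed transcript, the treatment of transcripts cannot move a gene's own ratio. Of the other 55, 48 kept their direction and their side of the 2-fold limit. Cxcl1 ranged from 2.20 to 2.43 over 10 alternatives, Cxcl12 from 0.41 to 0.58 and Ccl2 from -0.89 to -0.69. The sign changed for Cxcl5 after centring on the median (-0.031) and after the GC correction (-0.13), and for Ccl7 after upper-quartile scaling (0.020) and quantile normalization (0.014). Ccl5 ranged from -1.09 to -0.88 and Cx3cl1 from -1.03 to -0.74, across the limit.

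The number of chemokine genes past the limit, 2 as reported, was 3 with a pseudocount of 0.1 (Cx3cl1 added), 1 after upper-quartile scaling, 1 after the GC correction and 4 with a limit of 1.5-fold (Cxcl1 higher and Ccl2, Ccl5 and Cx3cl1 lower). Over all genes it was 1318 (12.8% of those compared) as reported, 1843 (17.8%) with a pseudocount of 0.1 and 1569 (15.2%) with 0.5. It was 1324 (12.8%) after upper-quartile scaling, 1213 (12.2%) after the GC correction and 3405 (33.0%) with a limit of 1.5-fold. With a mean of at least 5 FPKM, where fewer genes were compared, it was 857 (12.4%). The split of 684 higher and 634 lower moved to 596 and 729 after centring, 598 and 714 after quantile normalization, and 704 and 509 over 9935 genes after the GC correction. Upper-quartile scaling applies 1 factor per group and moved the median of all genes from 0.07 to 0.10 and Ccl5 from -1.02 to -0.98. The GC correction subtracts 1 offset for each of 8 classes of GC content and moved Ccl5 to -0.88. Ccl5 crossed the limit because it lay just past it as reported. What lies behind these offsets was not tested.

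No paired analysis was possible because the table gives 1 value per group, and no replicate was left out for lack of values per library. Library depth is unknown.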

Other observations

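Genes that act on chemokine proteins after their synthesis were also listed. Of 15 compared genes for shedding, cleavage and surface binding, 1 was at least 2-fold lower and 1 higher, near the 6.14% lower and 6.62% higher of all genes compared, with a median log2 ratio of -0.10. Mmp14, a membrane-bound matrix protease, was 2.28-fold lower (82.8 against 189 FPKM), and Mmp2, a gelatinase known to cut several chemokines, was at 131 and 151 FPKM. Hs2st1, a sulfotransferase of heparan sulfate, the sugar chain on which chemokines are held at cell surfaces, was 2.57-fold higher (16.1 against 6.29 FPKM). Its listed span overlaps the RefSeq genes Gm43560, Gm43707 and Gm46829, so its value is uncertain. The cysteine protease gene Ctsb was at 118 and 124 FPKM. Adam10 and Adam17, the proteases that release CX3CL1 from the membrane, were at 33.2 against 27.9 FPKM and 7.26 against 7.89 FPKM. The 4 syndecan genes, which encode heparan sulfate carriers, did not share a direction: Sdc1 was at 109 against 58.3 FPKM, Sdc4 at 102 against 69.4 FPKM, Sdc2 at 28.7 against 30.8 FPKM and Sdc3 at 12.5 against 24.0 FPKM, each within the limit. Gpc1, a glypican, was at 52.6 against 26.3 FPKM (0.97). Gpc1 passed the limit after upper-quartile scaling (1.01), quantile normalization (1.01) and a GC correction (1.21), and Sdc1 passed it with a GC correction.

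Chemokine messenger RNAs often carry AU-rich elements that mark them for decay. None of 11 compared genes of that decay pathway was past the limit, against 12.8% of all genes compared, and their median log2 ratio was 0.19. With the most abundant transcript in place of the sum, Cnot7 was higher and Tia1 lower. Zfp36, which encodes tristetraprolin, was at 12.4 against 6.90 FPKM, and its relatives Zfp36l1 and Zfp36l2 at 28.8 against 44.4 FPKM and 75.7 against 60.4 FPKM. Khsrp, another decay factor, was at 18.4 and 18.3 FPKM. Adam10, Adam17, Gpc1, Cnot7, Tia1, Zfp36 and the syndecan genes were named after their values were seen.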
